A study of Mus musculus with 7 samples.

Results

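Hepatocytes secrete most of the proteins that carry small molecules through blood plasma, and the 9 genes described here encode albumin and other such carriers. They were chosen by function: Alb (albumin), Afm (afamin), Gc (vitamin D-binding protein), Ttr (transthyretin), Trf (transferrin), Ahsg (fetuin-A), Fetub (fetuin-B), Rbp4 (retinol-binding protein) and Ambp (the precursor of alpha-1-microglobulin and bikunin). A region of accessible chromatin was taken as a member when it overlapped a member's gene body or the 10000 bp on either side, with gene models from GENCODE M21 on the mouse build GRCm38. This gave 61 of 55680 regions, and all 9 genes had at least 3 of them. The 9 genes were among 16231 protein-coding genes with a region within that distance.

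Albumin, afamin and the vitamin D-binding protein belong to a single family whose genes lie on chromosome 5, and they carry fatty acids, vitamin E and vitamin D metabolites. Transthyretin carries thyroxine and also holds the retinol-binding protein in plasma, transferrin carries iron, and the fetuins are inhibitors of mineral deposition and of proteases. These genes are transcribed at very high rates in hepatocytes, and their promoters are textbook targets of HNF4, FOXA and C/EBP factors.

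Accessible chromatin was measured by ATAC-seq, in which a transposase cuts exposed DNA, in liver of male C57BL/6N mice. The young group was 3 samples from mice of 3 months and the aged group 4 samples from mice of 18 months, both without treatment. The labels trace the aged samples to 3 animals, with 2 lobules of 1 animal used as separate replicates, and do not say which samples share an animal, so p-values reflect the spread between samples. The reads counted in all regions came to 10384725, 25461110 and 5709327 in young replicates 1 to 3 and to 11717992, 5108283, 4474652 and 8397956 in aged replicates 1 to 4. The tissue is bulk liver, so fewer cells of a type and less signal per cell cannot be told apart.

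The tissue label was compared with marker genes, each represented by its strongest promoter region. All 10 hepatocyte markers outside the member list had a promoter region, with a median level of 31.3 CPM per kb (CPM, counts scaled to a common library size with TMM normalization, per kb of region). Sinusoidal endothelial markers had one in 5 of 7 genes (median 8.58 CPM per kb), stellate markers in 5 of 7 (5.86 CPM per kb), cholangiocyte markers in 3 of 5 (5.44 CPM per kb), Kupffer cell markers in 1 of 8 (Clec4f, 5.37 CPM per kb) and lymphocyte markers in 0 of 7. Hepatocyte markers had the highest median level per kb of these lists.

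Member regions took up a similar share of the counts at both ages. They held 0.226% ± 0.0139 of the counts of young samples (SD, n = 3) and 0.221% ± 0.00735 of those of aged samples (SD, n = 4). Their lengths ran from 330 to 4323 bp with a median of 1283 bp, against 869 bp over all regions, and 19 of 61 lay in the strongest 10% of all regions by mean CPM. Per kb of region, 11 of 61 were in the densest 10% of all regions and 0 in the densest 1%, and the densest was an intronic region of Rbp4, at rank 692. Single counts in member regions ran from 2 to 5199, so precision differed widely among them.

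The test was edgeR's quasi-likelihood test of aged against young on all 55680 regions, with Benjamini-Hochberg adjustment over all of them and a call at an adjusted p under 0.05. By edgeR, 5 of 61 member regions were increased and 1 was decreased, where 2.44% of all regions were increased and 3.3% decreased. That balance depended on the test and on scaling. With DESeq2 2760 of all regions were increased and 1931 decreased, and with limma voom 2197 and 2383. By edgeR the counts were 3570 and 2057 with offsets fitted on GC content, and 543 and 2931 with libraries scaled to total counts. The increased regions lay at the starts of Gc, Ahsg and Fetub and in the 3′ flank of Afm, and the decreased region lay past the 3′ end of Gc. Without adjustment, 23 of 61 had an edgeR p under 0.05, beside 24.6% of all regions. In 8 of 61 regions every aged sample was above every young one, and in 7 every aged sample was below, which held for 10.2% and 11.6% of all regions. The median log2 fold change (aged over young) of the 61 was -0.034, beside -0.035 over all regions, with 30 of 61 above 0, and turned to 0.00060 with DESeq2, to 0.050 without young replicate 3, and to 0.0054 and 0.0062 with aged replicates 1 and 4 or 3 and 4 summed. It was -0.14 with total-count scaling, and -0.13 with 24 of 61 above 0 with offsets fitted on mean abundance, where the median of all regions was 0.0086.

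The number of calls depended on single samples and on scaling. By edgeR, 0 of 61 regions were called without young replicate 1, young replicate 2 or aged replicate 3, 0 were increased without aged replicate 1, and 0 were decreased without young replicate 3. Calls over all 55680 regions also became few, from 1360 increased and 1838 decreased to 55 and 133 without young replicate 1, 196 and 250 without young replicate 2, 129 and 273 without aged replicate 1 and 176 and 475 without aged replicate 3. With offsets fitted on mean abundance, which remove a trend of the fold change with region strength, edgeR called 0 of the 61 member regions, and 256 increased and 441 decreased over all regions. With libraries scaled to total counts, which moved the median of all regions from -0.035 to -0.15, 3 of the 61 were increased and 5 decreased.

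Levels of the loci can be compared only per length. Summed over a locus and divided by its accessible length, Rbp4 had the highest mean level, 37.6 ± 2.82 CPM per kb for young samples (SD, n = 3) and 38.7 ± 4.37 for aged samples (SD, n = 4). Ahsg (31.0 ± 3.47 and 38.4 ± 7.12), Ambp (31.9 ± 2.71 and 32.8 ± 0.689) and Alb (30.4 ± 7.81 and 26.8 ± 3.71) came next. Trf stood at 23.7 ± 3.23 and 21.3 ± 2.89 CPM per kb, and Ttr (15.7 ± 2.61 and 19.9 ± 5.44), Fetub (15.4 ± 0.679 and 19.98 ± 4.16) and Afm (15.3 ± 0.798 and 19.7 ± 1.62) lay close together below it. Gc was lowest, at 12.3 ± 0.890 and 12.6 ± 1.12 CPM per kb. Neighbours in this order differed by more than the larger of their SDs at both ages only between Afm and Gc. In young samples this also held between Rbp4 and Ahsg and between Trf and Ttr, and in aged samples between Ambp and Alb and between Alb and Trf. Alb, whose product is the most abundant of these proteins in plasma, did not have the highest mean level per kb.

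Alb, the gene of the main oncotic protein and fatty acid carrier of plasma, had 9 regions and edgeR called none. Its first exon lies in a region at chr5:90460500-90461932, which held 20.3, 25.7 and 21.5 CPM in young replicates 1 to 3 and 30.05, 36.7, 29.4 and 24.7 CPM in aged replicates 1 to 4. Only aged replicate 4 fell below the highest young sample, so the groups overlapped narrowly. The log2 fold change was 0.41 ± 0.15 (SE), with an edgeR adjusted p of 0.12. This region was singled out after its values were seen, because it holds the gene's 5′ end.

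The strongest region at an annotated transcript start of Alb was a longer one inside the gene, at chr5:90462346-90465435. It held 55.5, 84.3 and 86.8 CPM in young and 59.7, 87.9, 93.1 and 90.9 CPM in aged replicates, in that order. Young replicate 1 and aged replicate 1 were both low here and the others lay together, whatever their age. The log2 fold change of 0.13 ± 0.17 (SE, edgeR adjusted p = 0.695) turned negative, to -0.17, with offsets fitted on mean abundance and, to -0.047, without young replicate 1, and was 0.0067 with total-count scaling.

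Per kb, signal along Alb was highest at its 3′ end, at 45.2 CPM per kb over all samples. The region at chr5:90476151-90478226, which covers the 3′ UTR, held 85.2, 163 and 88.0 CPM in young and 80.3, 119, 76.6 and 45.7 CPM in aged replicates. Young replicate 2 was the highest and aged replicate 4 the lowest, and the other young values fell within the range of the aged ones. Its log2 fold change of -0.50 ± 0.26 (SE, edgeR adjusted p = 0.266) shrank to -0.11 without young replicate 2 and to -0.29 without aged replicate 4, and grew to -0.77 under abundance offsets. The regions over exons between the 5′ and 3′ ends ran from -0.16 to -0.41, and the one at -0.41 was at -0.21 without young replicate 2. In all, 2 of 9 Alb regions were above 0, both at starts, and 7 were below 0.

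Afm, the gene of the vitamin E carrier afamin, had 7 regions with weak signal over the gene itself. Its promoter region at chr5:90518298-90519309 held 12.3, 14.2 and 19.9 CPM in young and 17.3, 18.8, 16.3 and 12.2 CPM in aged replicates. The groups overlapped fully, and the log2 fold change was 0.081 ± 0.20 (SE, edgeR adjusted p = 0.843), turning to -0.036 with libraries scaled to total counts and to -0.051 without young replicate 1. In the 3′ flank, a region at chr5:90554742-90555534 had every aged sample below every young one (log2 fold change -0.65, edgeR adjusted p = 0.107). The called region of this locus was farther along the 3′ flank, at chr5:90560685-90563267, where it overlaps the promoter of another annotated gene, 5830473C10Rik.

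That flank region held 62.9, 57.8 and 61.0 CPM in young and 94.4, 76.5, 105 and 90.1 CPM in aged replicates. Every aged sample was above every young one, and the young samples lay close together. The region was increased, with a log2 fold change of 0.60 ± 0.12 (SE, edgeR adjusted p = 0.0165). The call was lost without young replicate 1 or 2 or aged replicate 1 or 3 (edgeR adjusted p from 0.0593 to 0.0769). It was also lost with offsets fitted on mean abundance (log2 fold change 0.31, edgeR adjusted p = 0.16). Summing aged replicates 1 and 3 as a single animal also ended it (edgeR adjusted p = 0.051).

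Gc, whose product carries vitamin D metabolites and binds free actin, had the most regions, 14. Its promoter region at chr5:89456925-89460192, over the 5′ UTR and the first coding exon, held 56.6, 57.2 and 62.6 CPM in young and 82.1, 87.1, 83.1 and 77.6 CPM in aged replicates. All aged samples were above all young ones, with a gap wider than the range of either group. The region was increased, with a log2 fold change of 0.49 ± 0.10 (SE, edgeR adjusted p = 0.0201). The call was lost without young replicate 1 or 2 or aged replicate 1 or 3 (edgeR adjusted p from 0.0638 to 0.0884) and with offsets fitted on mean abundance (log2 fold change 0.22, edgeR adjusted p = 0.357). Summing aged replicates 1 and 3 as a single animal also ended it (edgeR adjusted p = 0.0549).

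At the other end of Gc the direction was opposite. A weak region past the 3′ end, at chr5:89415517-89416138, held 6.11, 7.56 and 10.2 CPM in young and 4.57, 3.33, 4.44 and 3.31 CPM in aged replicates, from as few as 17 counts in a sample. Every aged sample was below every young one. This region was decreased, with a log2 fold change of -0.99 ± 0.26 (SE, edgeR adjusted p = 0.0387). Leaving out any 1 of the 7 samples ended the call (edgeR adjusted p from 0.0517 to 0.106), as did offsets fitted on mean abundance (log2 fold change -0.78, edgeR adjusted p = 0.148) and summing aged replicates 1 and 2, 1 and 3, 2 and 3 or 3 and 4 (edgeR adjusted p from 0.0534 to 0.0727). Of the 14 Gc regions 10 were below 0, among them an intronic one near the 3′ end (chr5:89417918-89418620, log2 fold change -0.73, edgeR adjusted p = 0.0749, and a call with total-count scaling at 0.0472). That region held 7.33 to 12.5 CPM in young and 5.10 to 5.98 CPM in aged samples, which did not overlap.

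**Figure D1:**
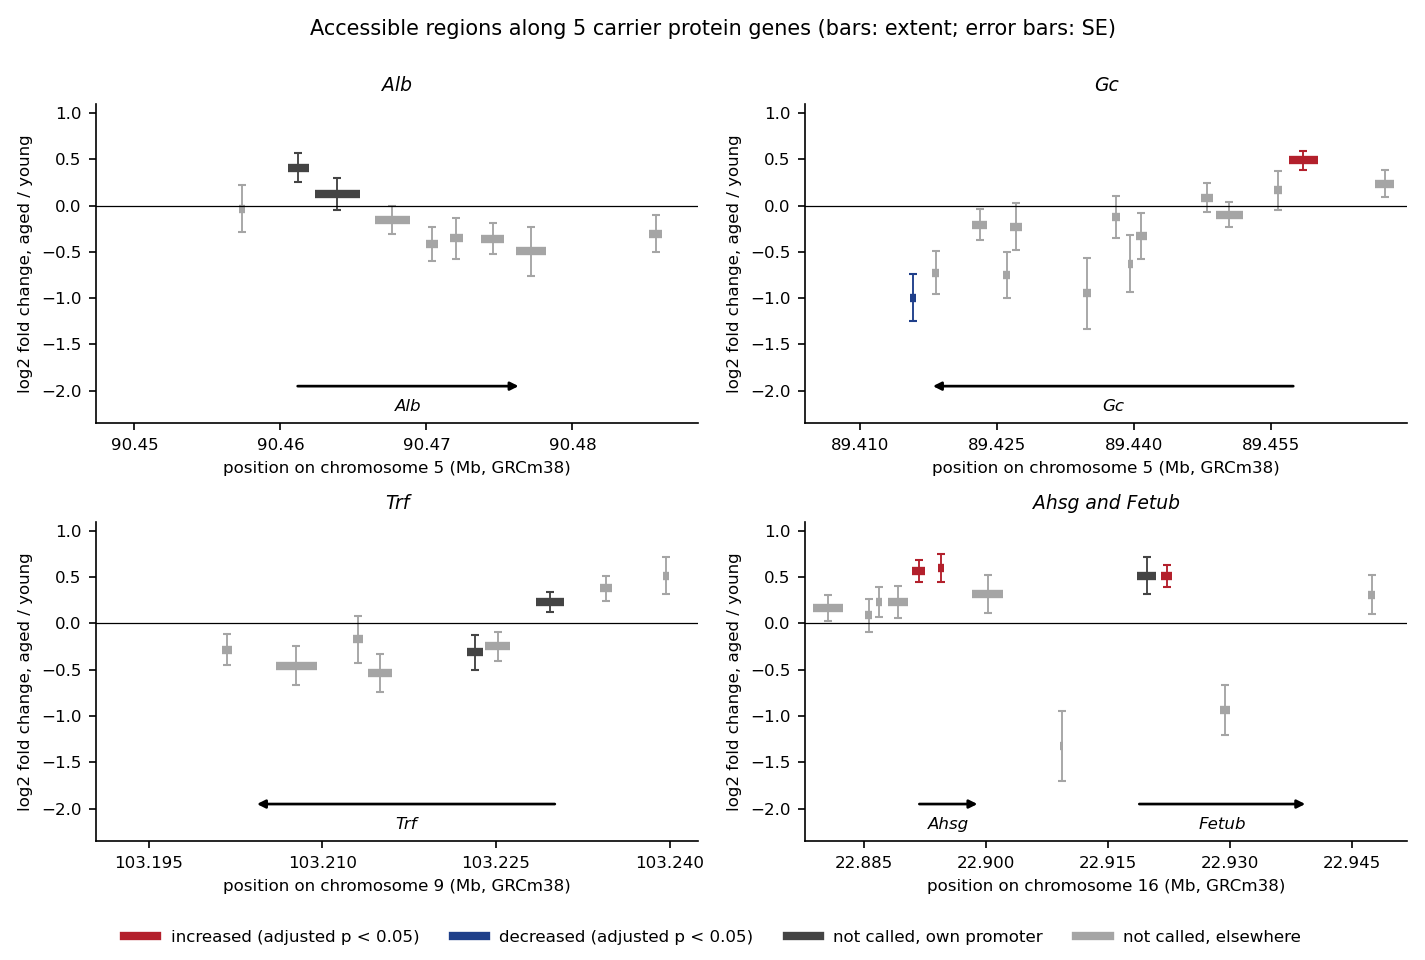
Log2 fold change (aged over young, y axis) of each accessible region against its position in Mb on GRCm38 (x axis) at Alb, Gc, Trf and the neighbouring Ahsg and Fetub. Horizontal bars span a region, error bars are SE from edgeR (3 young, 4 aged samples) and arrows show the direction of transcription; at Alb and Gc the 5′ start lies above 0, at 0.41 and 0.49, and the 3′ end or flank below 0, at -0.50 (-0.11 without young replicate 2) and -0.99.

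Ttr, the thyroxine carrier, had 3 regions and edgeR called none with all samples. The region at its start held 67.6, 66.7 and 62.6 CPM in young and 91.8, 81.4, 86.1 and 65.0 CPM in aged replicates. Only aged replicate 4 fell within the young range, and the log2 fold change was 0.30 ± 0.12 (SE, edgeR adjusted p = 0.152). Without that sample it was a call (0.40, edgeR adjusted p = 0.0427), and it was 0.19 with total-count scaling and 0.032 with offsets fitted on mean abundance. A long region over the 3′ part of the gene held 92.6, 60.6 and 49.5 CPM in young and 149, 79.6, 69.6 and 56.4 CPM in aged replicates. Replicate 1 was the highest sample in either age group, and the log2 fold change of 0.40 ± 0.28 (SE, edgeR adjusted p = 0.396) was 0.70 without young replicate 1, 0.24 without young replicate 3 and 0.012 without aged replicate 1. Abundance offsets brought it to 0.14.

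Rbp4, whose product brings retinol from liver stores to other tissues, had 4 regions and edgeR called none with all samples. The promoter region at chr19:38124276-38125558 held 49.2, 60.1 and 48.2 CPM in young and 55.3, 58.6, 67.9 and 58.4 CPM in aged replicates. The groups overlapped, and the log2 fold change of 0.18 ± 0.12 (SE, edgeR adjusted p = 0.374) turned to -0.055 with offsets fitted on mean abundance and was 0.064 with total-count scaling and 0.30 without young replicate 2. The intronic region at chr19:38119473-38121280 had the highest level per kb of all 61, 59.8 CPM per kb. It held 85.5, 105 and 102 CPM in young and 104, 116, 134 and 109 CPM in aged replicates, and 1 aged sample lay within the young range. Its log2 fold change of 0.24 ± 0.12 (SE, edgeR adjusted p = 0.243) turned to -0.095 with the same offsets and was 0.12 with total-count scaling and 0.16 without young replicate 1.

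A weak region upstream of Rbp4, at chr19:38133755-38135335, was chosen after its values were seen. It held 14.3, 10.7 and 10.9 CPM in young and 5.10, 2.94, 3.50 and 11.7 CPM in aged replicates. The first 3 aged samples were below every young one and aged replicate 4 was among the young values. The log2 fold change of -0.98 ± 0.35 (SE) had an edgeR adjusted p of 0.104 with all samples and 0.0046 without aged replicate 4, where it was -1.55. The region was also a call with limma voom (-1.09, adjusted p = 0.0474) and with aged replicates 1 and 4 or 2 and 4 summed (edgeR adjusted p = 0.0386 and 0.0316).

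Trf, which encodes the iron carrier transferrin, had 9 regions and edgeR called none with TMM scaling. The promoter region at chr9:103228429-103230880 held 72.6, 73.2 and 63.1 CPM in young and 79.8, 77.7, 84.0 and 86.8 CPM in aged replicates. Every aged sample was above every young one by a small margin, and the log2 fold change of 0.23 ± 0.11 (SE, edgeR adjusted p = 0.194) turned to -0.048 with offsets fitted on mean abundance, was 0.11 with total-count scaling, and was a call with offsets fitted on GC content (0.32, edgeR adjusted p = 0.0432). Both upstream regions also had every aged sample above every young one. The nearer, at chr9:103233992-103234981, held 26.5, 27.0 and 28.1 CPM in young and 33.4, 29.4, 37.6 and 40.7 CPM in aged replicates (log2 fold change 0.38, edgeR adjusted p = 0.101). It was a call with GC offsets (0.48, edgeR adjusted p = 0.0348) and at 0.24 with abundance offsets. Those inside the gene and past its 3′ end were all below 0 and overlapped between ages, from -0.17 to -0.54 (-0.35 without young replicate 3). The strongest of them in CPM, at the 3′ end (chr9:103206032-103209511), held 92.6, 66.4 and 115 CPM in young and 92.1, 44.9, 65.8 and 60.2 CPM in aged replicates, with an edgeR adjusted p of 0.2. Aged replicate 1 lay there with the higher young samples, and the log2 fold change of -0.45 was -0.24 without young replicate 3 and -0.74 with offsets fitted on mean abundance.

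Ahsg and Fetub, neighbours on chromosome 16, encode fetuin-A, which keeps calcium phosphate in solution, and fetuin-B, which inhibits a protease of the egg. The Ahsg promoter region at chr16:22890862-22892514 held 63.3, 68.8 and 53.3 CPM in young and 91.2, 81.0, 94.5 and 101 CPM in aged replicates. All aged samples were above all young ones. The region was increased, with a log2 fold change of 0.57 ± 0.12 (SE, edgeR adjusted p = 0.0204). The call was lost without young replicate 1 or 2 or aged replicate 1 or 3 (edgeR adjusted p from 0.0523 to 0.0739) and with offsets fitted on mean abundance (log2 fold change 0.28, edgeR adjusted p = 0.162). Summing aged replicates 1 and 3 as a single animal also ended it (edgeR adjusted p = 0.0574).

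A shorter region inside Ahsg, at chr16:22894106-22894805, covers another annotated start of the gene and that of Gm30505. It held 21.8, 23.8 and 21.5 CPM in young and 31.7, 28.6, 32.5 and 43.0 CPM in aged replicates, again without overlap, and aged replicate 4 was the highest. It was increased, with a log2 fold change of 0.60 ± 0.15 (SE, edgeR adjusted p = 0.035). The call was lost without any of the young replicates and without aged replicate 1 or 3 (edgeR adjusted p from 0.0661 to 0.115), with total-count scaling (edgeR adjusted p = 0.0605) with offsets fitted on mean abundance (edgeR adjusted p = 0.13) and with aged replicates 1 and 3 summed (edgeR adjusted p = 0.0721).

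The strongest of the 61 regions in CPM covered the 3′ end of Ahsg, at chr16:22898316-22902069. It held 140.0, 197 and 192 CPM in young and 258, 132, 219.7 and 266 CPM in aged replicates. Aged replicate 2 was the lowest sample of all and aged replicates 1, 3 and 4 were the highest, so the groups overlapped. The log2 fold change of 0.32 ± 0.20 (SE, edgeR adjusted p = 0.353) turned to -0.14 with offsets fitted on mean abundance, and was 0.19 with total-count scaling, 0.18 without young replicate 1 and 0.50 without aged replicate 2.

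At Fetub, the strongest start region, chr16:22918538-22920932, held 51.5, 53.4 and 40.1 CPM in young and 50.8, 61.4, 64.2 and 102 CPM in aged replicates. Aged replicate 4 stood far above the rest and aged replicate 1 was within the young range (log2 fold change 0.52 ± 0.20, SE, edgeR adjusted p = 0.122, and 0.27 both without aged replicate 4 and with offsets fitted on mean abundance). Another start region at chr16:22921493-22922904 held 24.0, 24.7 and 27.6 CPM in young and 35.6, 37.5, 34.3 and 37.2 CPM in aged replicates. All aged samples were above all young ones and the spread within each group was small.

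This other Fetub region was increased, with a log2 fold change of 0.51 ± 0.12 (SE, edgeR adjusted p = 0.0274). The call was lost without young replicate 1 or 2 or aged replicate 1 or 3 (edgeR adjusted p from 0.0666 to 0.112), with total-count scaling (0.40, edgeR adjusted p = 0.0689) with offsets fitted on mean abundance (0.38, edgeR adjusted p = 0.134) and with aged replicates 1 and 3 summed (edgeR adjusted p = 0.059). Farther along, an exonic region at chr16:22928786-22929944 had 7.22 to 8.73 CPM in young and 2.10 to 5.69 CPM in aged samples, every aged one below (log2 fold change -0.93 ± 0.27, SE, edgeR adjusted p = 0.0565). Between the fetuin genes, a region in the flanks of both (chr16:22909150-22909511) had 2.83 to 3.45 CPM in young and 0.467 to 1.91 CPM in aged samples (log2 fold change -1.33 ± 0.38, SE, edgeR adjusted p = 0.0528). The exonic region was a call with DESeq2 (adjusted p = 0.0339), limma voom (adjusted p = 0.0363) and total-count scaling (edgeR adjusted p = 0.0378), and without aged replicate 2 or 4 (edgeR adjusted p = 0.049 and 0.0464). The region between the genes was a call with limma voom (adjusted p = 0.0473), total-count scaling (edgeR adjusted p = 0.0359), GC offsets (edgeR adjusted p = 0.0484) and without aged replicate 4 (edgeR adjusted p = 0.0236), and was at -0.83 with abundance offsets. These weak regions were named after their values were seen, and the one between the genes rests on as few as 2 counts in a sample.

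**Figure D2:**
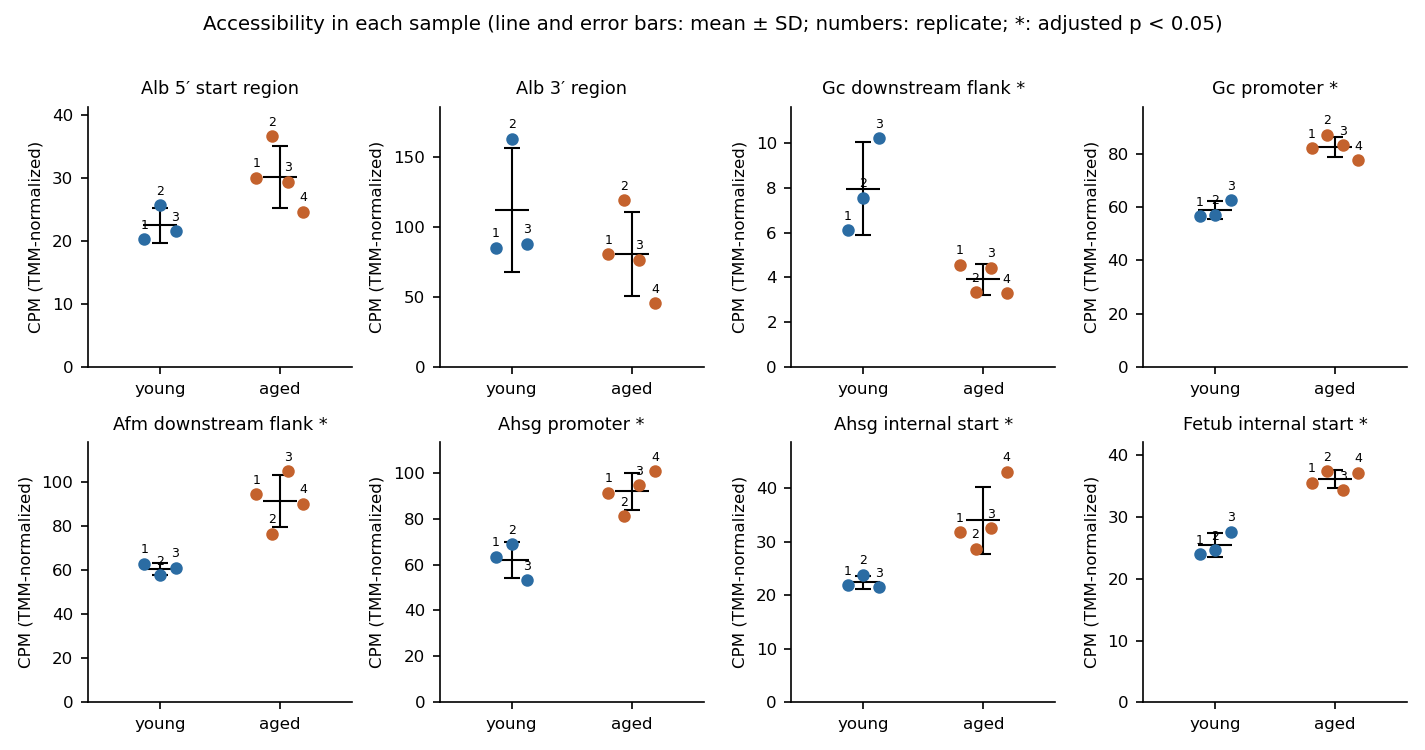
CPM (TMM-normalized, y axis, from 0) in each young and aged sample at both ends of Alb and at the 6 called regions, with the replicate number at each point and lines with error bars for the mean and SD (3 young, 4 aged). At the Gc promoter the young samples lie between 56.6 and 62.6 CPM and the aged ones between 77.6 and 87.1 CPM, while at both ends of Alb the ages overlap.

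Ambp encodes a precursor that is cut into a carrier of heme-like pigments and a protease inhibitor. Its promoter region at chr4:63153438-63154731 held 41.7, 38.5 and 44.2 CPM in young and 40.3, 44.1, 49.0 and 36.7 CPM in aged replicates. The groups overlapped fully, with a log2 fold change of 0.033 ± 0.12 (SE, edgeR adjusted p = 0.901) that turned to -0.085 with total-count scaling and to -0.16 with offsets fitted on mean abundance. An upstream region at chr4:63156747-63159199 was stronger, with 90.6, 76.5 and 84.2 CPM in young and 88.5, 86.1, 82.6 and 98.6 CPM in aged replicates. It too overlapped between ages, and its log2 fold change of 0.091 ± 0.11 (SE, edgeR adjusted p = 0.656) turned to -0.029 with total-count scaling and to -0.21 with offsets fitted on mean abundance.

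A weak region past the 3′ end of Ambp, at chr4:63142027-63142356, was chosen after its values were seen. It held 6.66, 2.80 and 5.10 CPM in young and 2.196, 1.77, 2.57 and 2.04 CPM in aged replicates, from as few as 9 counts. Every aged sample was below every young one, and the log2 fold change was -1.14 ± 0.34 (SE, edgeR adjusted p = 0.0622). It was a call with total-count scaling (-1.26, edgeR adjusted p = 0.0425).

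Summed over a whole locus, the opposite signs within a gene partly cancelled. The sums were tested by edgeR over all 16231 genes, of which 6.1% were increased and 3.27% decreased. That balance turned to 170 increased and 922 decreased with total-count scaling and to 50 and 118 with offsets fitted on mean abundance. It was 3344 and 696 with offsets fitted on GC content and 2640 and 642 with DESeq2. Afm was the only member increased (log2 fold change 0.37 ± 0.091, SE, edgeR adjusted p = 0.0357) and, with only the regions of the gene body, which leaves out the flank region at 5830473C10Rik, 0 member loci were increased. Its summed signal was 114, 108 and 120.4 CPM in young and 147, 141, 165 and 137 CPM in aged replicates, without overlap, and the call was lost without young replicate 1 or 2 or aged replicate 1 or 3 (edgeR adjusted p from 0.0765 to 0.116). It was also lost with total-count scaling (0.25, edgeR adjusted p = 0.108), with offsets fitted on mean abundance (0.23, edgeR adjusted p = 0.22) and with aged replicates 1 and 3, 2 and 3 or 3 and 4 summed (edgeR adjusted p from 0.0516 to 0.0848). Fetub, at 0.37 (edgeR adjusted p = 0.0905), also had every aged sample above every young one and was at 0.22 without aged replicate 4, at 0.23 with abundance offsets and a call with DESeq2 (adjusted p = 0.0392).

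The decreased loci among the members numbered 0 with edgeR, with DESeq2 and with limma voom, and the 9 loci included 0 below 0 with an unadjusted p under 0.05. For Alb the sums were 324, 528 and 381 CPM in young and 321, 432, 361 and 332 CPM in aged replicates, with young replicate 2 the highest. Its log2 fold change of -0.19 ± 0.16 (SE, edgeR adjusted p = 0.42) became 0.035 without that sample, -0.30 with total-count scaling and -0.40 with offsets fitted on mean abundance. Trf stood at -0.15 and Ttr and Ahsg at 0.35 and 0.31, with edgeR adjusted p of 0.426, 0.206 and 0.161. Without aged replicate 1 Ttr was at 0.14, and Trf ran from -0.24 without young replicate 2 to -0.035 without young replicate 3. With total-count scaling Trf was at -0.27, and with abundance offsets Trf was at -0.34 and Ttr at 0.10. The Ahsg value became -0.015 with abundance offsets and 0.18 with total-count scaling, and was a call without aged replicate 2 (0.42, edgeR adjusted p = 0.041) and with aged replicates 2 and 4 summed (edgeR adjusted p = 0.0397). Gc, Rbp4 and Ambp stood at 0.037, 0.038 and 0.041, and turned to -0.081, -0.081 and -0.078 with total-count scaling and to -0.050, -0.23 and -0.21 with offsets fitted on mean abundance. By summed CPM, which is not corrected for accessible length, Ahsg ranked 64, Alb 183 and Trf 299.5 of the 16231 genes. Rbp4, the highest member per kb, ranked 783 by this sum.

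The regions were also grouped by their position relative to the gene. Those that also overlapped a promoter of another gene stayed in their groups, while the set of all regions outside promoters leaves such regions out. Downstream these were at 5830473C10Rik (log2 fold change 0.60) and Srprb (-0.28), and upstream at Gm43449 (0.33). Start regions of Ttr, Trf and Ahsg overlapped promoters of Gm16090, Gm20425 and Gm30505. Of 13 regions at a member's own annotated starts 12 were above 0, with a median log2 fold change of 0.30, and edgeR called 4 increased and 0 decreased. Over all 15422 promoter regions the median was 0.094 with 61.1% above 0, and edgeR called 4.48% increased and 2.06% decreased. Among the 13 upstream regions 11 were above 0 (median 0.23), and among the 17 exonic regions 15 were below 0 (median -0.36). The intronic (6 of 9 below 0, median -0.17) and downstream regions (7 of 9 below 0, median -0.30) also lay mostly below 0, beside a median of -0.091 with 41.0% above 0 over all regions outside promoters. A single sample moved some of these medians: that of the exonic regions was -0.21 without young replicate 2, that of the intronic ones ran from -0.30 without aged replicate 1 to -0.052 without young replicate 3, and that of the downstream ones was -0.45 without young replicate 3.

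Signal strength differed among these positions. The strongest 10% of all regions held 7 of the 13 start regions, 6 of 17 exonic, 3 of 13 upstream, 2 of 9 downstream and 1 of 9 intronic ones. Over that 10% the median log2 fold change was 0.28 and edgeR called 11.8% increased and 0.251% decreased. With offsets fitted on mean abundance, the median of the start regions was 0.073 with 8 of 13 above 0, and that of the exonic ones was -0.45 with 2 of 17 above 0. With total-count scaling these medians were 0.19 and -0.47. The upstream regions had medians of 0.13 and 0.11 with these offsets and with total-count scaling, each with 9 of 13 above 0, the downstream ones -0.45 and -0.42, and the intronic ones -0.095 and -0.29. The relation of signal strength to these signs was not tested.

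A measure free of scaling between libraries is the ratio, within a library, of counts in the region at the gene's start to those in its other regions. This ratio was chosen after the fold changes were seen and is a description. At Alb its log2 was -3.80, -4.21 and -3.99 in young and -3.17, -3.35, -3.41 and -3.55 in aged replicates, and at Gc -1.25, -1.23 and -1.30 in young and -0.87, -0.38, -0.46 and -0.55 in aged replicates. In both genes every aged sample was above every young one, and the aged mean exceeded the young mean by 0.63 at Alb and 0.69 at Gc. Without any 1 sample the differences ran from 0.52 to 0.73 and from 0.63 to 0.80.

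The other members overlapped between ages in this ratio. The aged mean was above the young mean by 0.66 at Trf, 0.26 at Ahsg, 0.22 at Fetub and 0.19 at Afm, and the difference was -0.047 at both Ttr and Rbp4. Without 1 sample these ran from 0.43 to 0.86 at Trf, 0.094 to 0.42 at Ahsg, 0.039 to 0.35 at Fetub and 0.017 to 0.38 at Afm, and turned sign at Ttr (-0.28 to 0.17) and Rbp4 (-0.14 to 0.0036). Ambp had no region of its own body apart from the one at its start. Over 6230 genes with such a ratio, the median difference was 0.18, 68.8% were above 0, and in 21.4% every aged sample was above every young one, beside 2 of 8 members.

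**Figure D3:**
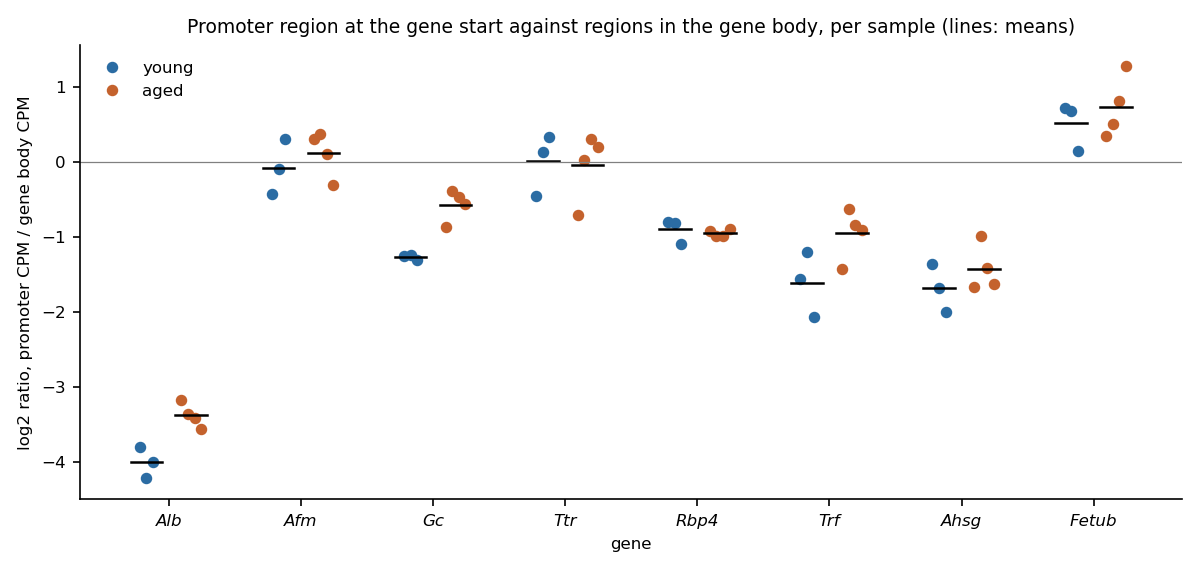
Log2 ratio of the CPM at the gene start to the summed CPM of the other regions of the gene body (y axis) for 8 genes (x axis), in each young and aged sample (points) with group means (lines). At Alb and Gc every aged sample lies above every young one, with mean differences of 0.63 and 0.69, and at the other 6 genes the ages overlap.

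Promoter sequences are shown for Ahsg, a member with a called promoter region, and for Alb and Afm, whose start regions were not called. They come from RefSeq (GRCm38.p6), whose table matched 7 of the 9 members with 9 promoters, and each is the 150 bases before the start, written 5′ to 3′ on the gene's strand. The positions are chr5:90460720-90460869 (plus strand) for Alb, chr5:90518799-90518948 (plus strand) for Afm and chr16:22891865-22892014 (plus strand) for Ahsg. Each lies inside the region described above for the gene's start. Capitals mark matches, on either strand, to TATAAA, to TTGCNNAA (C/EBP), to TGTTTAC or TGTTTGC (FOXA) or to CAAAGTCCA (HNF4).
Alb: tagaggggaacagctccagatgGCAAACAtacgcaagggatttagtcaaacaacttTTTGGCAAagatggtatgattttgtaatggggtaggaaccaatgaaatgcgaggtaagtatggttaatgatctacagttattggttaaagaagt
Afm: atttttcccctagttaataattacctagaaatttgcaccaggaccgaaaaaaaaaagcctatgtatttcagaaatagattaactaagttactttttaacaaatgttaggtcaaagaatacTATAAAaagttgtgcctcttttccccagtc
Ahsg: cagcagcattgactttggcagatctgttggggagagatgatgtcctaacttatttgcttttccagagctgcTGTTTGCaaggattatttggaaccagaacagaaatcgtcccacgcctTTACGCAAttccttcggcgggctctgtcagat

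In the 250 bases before its start, Alb had a match to TGTTTGC and to TTGCNNAA, each on the opposite strand, beginning 128 and 94 bases before it. Afm matched TATAAA 30 bases before its start, and Ahsg matched TGTTTGC and TTGCNNAA, 79 and 32 bases before its start. TGTTTGC was also found before the starts of Fetub and Ambp, TGTTTAC before those of Fetub and Rbp4, TATAAA before those of Fetub and Rbp4, and TTGCNNAA before that of Rbp4. Gc, whose promoter region was also called, had 0 matches to these strings. Strings for other factors were not searched, so a lack of matches or capitals does not mean a lack of binding sites.

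Among all 32851 promoters of that length, TATAAA matched in 12.4%, TTGCNNAA in 9.56%, TGTTTAC in 3.17%, TGTTTGC in 4.3% and CAAAGTCCA in 0.384%. The last matched in 0 of the 9 member promoters. A match is a string of letters and not a measured binding site.

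Other secreted carriers and binding partners had a promoter region in 21 of 23 genes, all but Afp and Shbg. By edgeR 4 of the 21 were increased and 0 decreased, and the log2 fold changes had a median of 0.25 with 18 above 0. Over all promoter regions edgeR called 4.48% increased with 61.1% above 0, and over the strongest 10% of regions 11.8% with 93.8% above 0. The increased ones were Cp, which encodes the copper carrier ceruloplasmin (log2 fold change 1.16, edgeR adjusted p = 0.0147), Itih2 of the inter-alpha-inhibitor (0.72, edgeR adjusted p = 0.0261), and the kininogens Kng1 (0.49, edgeR adjusted p = 0.0267) and Kng2 (0.46, edgeR adjusted p = 0.0342).

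At the Cp promoter the young replicates held 5.74, 10.6 and 11.02 CPM and the aged ones 23.0, 15.5, 20.8 and 21.8 CPM. All aged samples were above all young ones, and the call held with every change of scaling, including offsets fitted on mean abundance (1.18, edgeR adjusted p = 0.0292). It was lost without young replicate 1 or aged replicate 1 or 3 (edgeR adjusted p from 0.0508 to 0.064). With those offsets 1 of the 21 carriers was increased and the median was 0.0077, with Itih2 at 0.62, Kng1 at 0.25 and Kng2 at 0.22. The calls at Itih2, Kng1 and Kng2 were also lost without young replicate 1 or 2 or aged replicate 1 or 3 (edgeR adjusted p from 0.0632 to 0.125), and that at Kng2 also without aged replicate 4 (edgeR adjusted p = 0.0508). With total-count scaling the calls at Kng1 and Kng2 were lost (edgeR adjusted p = 0.0519 and 0.0706). Summing aged replicates 1 and 3 ended the calls at Itih2, Kng1 and Kng2 (edgeR adjusted p = 0.063, 0.0721 and 0.0721), summing 3 and 4 those at Kng1 and Kng2 (0.0518 and 0.0618) and summing 2 and 3 that at Kng2 (0.0562). Without young replicate 1, aged replicate 1 or aged replicate 3 edgeR called 0 of the 21.

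Genes for receptors and uptake of the carried molecules had a promoter region in 9 of 13, all but Lrp2, Cubn, Stra6 and Cd163. By edgeR 1 was increased and 1 decreased, 8 were above 0 and the median was 0.19, beside 4.48% increased, 2.06% decreased and 61.1% above 0 over all promoter regions. In the strongest decile of all regions by mean CPM, 11.8% were increased and 93.8% were above 0. Abundance offsets brought the median of the 9 to 0.0010, with 5 above 0. Total-count scaling brought it to 0.075, with 8 above 0. The increased one of the 9 was Fcgrt, which encodes the receptor that returns albumin to the circulation. Its promoter held 57.1, 59.3 and 48.3 CPM in young and 74.1, 71.6, 77.3 and 68.9 CPM in aged replicates (log2 fold change 0.40 ± 0.11, SE, edgeR adjusted p = 0.0483). The aged samples were all higher, and the call was lost with total-count scaling and without any 1 sample other than aged replicate 4. Offsets fitted on mean abundance also ended it, at a log2 fold change of 0.15 (edgeR adjusted p from 0.0595 to 0.505 over these fits). It was also lost with every summed pair of aged replicates but 2 and 4 (edgeR adjusted p from 0.0573 to 0.111).

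Of the 7 stellate markers, all 5 with a promoter region were below 0 (median log2 fold change -0.52), where 61.1% of all promoter regions were above 0 and 2.06% were decreased. By edgeR 0 were called, 2 had an unadjusted p under 0.05, and DESeq2 and limma voom also called 0, while 1 was decreased with total-count scaling and with aged replicates 1 and 4 summed. The median was -0.19 with 1 above 0 with offsets fitted on mean abundance, and -0.29 without aged replicate 2. Their summed promoter signal was 51.1, 44.7 and 40.9 CPM in young and 32.9, 27.3, 30.1 and 39.6 CPM in aged replicates, all aged sums below all young ones, which held for single regions in 11.6% of all. Reln was the most abundant, at 17.4 to 21.1 CPM in young and 9.10 to 15.3 CPM in aged samples, and Dcn and Pdgfrb had no promoter region.

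Liver-enriched factors known to bind promoters of the albumin type had a promoter region in 18 of 18 genes. By edgeR 2 were increased and 0 decreased, 16 were above 0 and the median was 0.19, beside 11.8% increased and 93.8% above 0 over the strongest 10% of regions. Onecut1 held 113, 121 and 151 CPM in young and 297, 185, 249 and 213 CPM in aged replicates (log2 fold change 0.88 ± 0.16, SE, edgeR adjusted p = 0.0120), all aged samples above all young ones. Foxa2, which encodes a FOXA factor, held 94.6, 102 and 87.0 CPM in young and 150.4, 112, 140.1 and 128 CPM in aged replicates (0.49 ± 0.12, SE, edgeR adjusted p = 0.0354), also without overlap. With offsets fitted on mean abundance 0 of the 18 were called and 4 were above 0, with a median of -0.055. Onecut1 was then at 0.46 and Foxa2 at 0.15. The Onecut1 call was lost without young replicate 1 or 2 (edgeR adjusted p = 0.064 and 0.0576), and that of Foxa2 without any of the young replicates and without aged replicate 1 or 3 (edgeR adjusted p from 0.0679 to 0.111) and with total-count scaling (edgeR adjusted p = 0.0621). Summing aged replicates 1 and 3 or 3 and 4 also ended the Foxa2 call (edgeR adjusted p = 0.093 and 0.0613). Without aged replicate 2, 1 of the 18 promoters was decreased.

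Hnf4a, which encodes HNF4, stood at 0.25 (edgeR adjusted p = 0.145), with every aged sample above every young one. Cebpa was at 0.079 (edgeR adjusted p = 0.693). Dbp, a clock-driven activator of the Alb promoter, was at -0.38 (edgeR adjusted p = 0.249), with 108, 108 and 75.0 CPM in young and 53.9, 109, 70.3 and 67.8 CPM in aged replicates, which overlapped. Hnf4a and the other factors of this paragraph were chosen as textbook regulators of Alb after their values were seen.

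Hepatocyte markers outside the member list had 2 of 10 promoters increased by edgeR and 0 decreased, with 9 above 0 and a median of 0.26, beside 4.48% increased and 61.1% above 0 over all promoter regions. They were Apoa1 (log2 fold change 0.53, edgeR adjusted p = 0.0331) and Apoc3 (0.52, edgeR adjusted p = 0.0218), and both calls were lost with offsets fitted on mean abundance (0.077 and 0.28) and without young replicate 1, aged replicate 1 or aged replicate 3 (edgeR adjusted p from 0.0689 to 0.122). The Apoa1 call was also lost without young replicate 2 or 3 (edgeR adjusted p = 0.078 and 0.0569). Summing aged replicates 1 and 3 ended both calls (edgeR adjusted p = 0.0903 and 0.0608), and summing 3 and 4 that at Apoa1 (edgeR adjusted p = 0.0675). In the strongest 10% of all regions, 11.8% were increased and 93.8% were above 0. Abundance offsets lowered the median of the 10 hepatocyte markers to 0.080, with 6 above 0. Total-count scaling put the median of these markers at 0.14, with 7 above 0. Beside them, 1 of 5 sinusoidal endothelial and 1 of 3 cholangiocyte promoters were above 0, and 0 were called by edgeR, DESeq2 or limma voom (unadjusted p under 0.05 in 0 and 1). The summed endothelial signal was 81.7, 78.2 and 71.4 CPM in young and 60.0, 57.3, 78.9 and 96.1 CPM in aged replicates, with Stab2 the most abundant. The cholangiocyte sums were 51.2, 43.8 and 52.0 CPM in young and 45.9, 39.4, 40.2 and 56.9 CPM in aged replicates, with Sox9 the most abundant.

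The genes most like Alb across the 7 libraries were found by the root mean square difference of centred log2 CPM of the summed loci, among 13430 genes on other chromosomes with a mean of at least 10 CPM. They were Arhgap20 (0.067), Ackr2 (0.084) and Shld1 (0.097). Like Alb, all of these were highest in young replicate 2, where Arhgap20 held 17.9 CPM, Ackr2 308 CPM and Shld1 249.7 CPM, and next highest in aged replicate 2. The likeness is a description and carries no p.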

How the data were processed

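Per the labels and series description, the authors trimmed ATAC-seq reads with cutadapt 1.13, aligned them to GRCm38 with Bowtie2 2.4.1 (mapping quality 10), called peaks with MACS2 2.2.7 and counted reads with featureCounts. The deposited values are raw counts in 55680 regions, kept where 2 or more libraries had a peak, 173 to 8055 bp long (median 869 bp). Everything else was computed here with R 4.3.3, edgeR 4.0.16, limma 3.58.1, DESeq2 1.42.0, Python 3.11.15, pandas 2.3.3, numpy 2.4.6 and matplotlib 3.10.9.

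CPM values are TMM-normalized without a prior count. Age was tested by edgeR's quasi-likelihood F test without further terms, with Benjamini-Hochberg adjustment over all regions, after a trial on simulated data. The SE is the absolute log2 fold change over the square root of F. Loci were tested in the same way on counts summed over the gene body and 10000 bp on either side. A promoter region lies within 200 bp of an annotated start, and the promoter-to-body ratio required at least 10 counts. The members and lists were chosen with earlier results of these data known. The regions named by rule were every called member region, each member's strongest promoter region and its densest other region; the rest were named after their values were seen. Some items of the lists are not reported here.

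The alternatives were DESeq2, limma voom, scaling to total counts, loess offsets (span 0.3) on mean abundance or GC content, edgeR's filterByExpr, leaving out each sample, summing each pair of aged samples as a single animal, a replicate block, a threshold of 0.01, the gene body alone and promoters within 1000 bp. The promoter-to-body ratio and its leave-one-out values were added after the data were seen. Unequal depth, from 4474652 to 25461110 counts, makes weak regions the least precise.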

Additional observations from a re-analysis of the deposited data

Results flagged for a closer look

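In a pair of regions a single aged sample stood far from the other aged ones, by the ratio of its gap to the nearest sample over the range of the group. At the longer start region of Alb, chr5:90462346-90465435, aged replicate 1 held 59.7 CPM and the others 87.9, 93.1 and 90.9 CPM, a ratio of 0.842, past Dixon's limit for 4 samples. At an exonic region of Gc, chr5:89434440-89435276, aged replicate 1 held 5.18 CPM and the others 1.77, 1.87 and 1.27 CPM, a ratio of 0.848, and its log2 fold change of -0.95 (edgeR adjusted p = 0.145) was -1.73 without that sample (edgeR adjusted p = 0.041). Chance puts about 1 in 20 groups past the limit, and 42 groups of 4 were tested. In both regions the outlying sample lay within or next to the young values, and the cause was not tested.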

How the results depend on the processing

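The edgeR counts of member regions, 5 increased and 1 decreased, depended on the processing. The increased count was 7 with GC offsets, 3 with total-count scaling, 0 with offsets fitted on mean abundance, 0 with aged 1 and 3 summed and 0 at a threshold of 0.01, and ran from 0 to 6 in the leave-one-out fits. The decreased count was 2 with DESeq2, 4 with limma voom, 5 with total-count scaling, 0 with abundance offsets, 2 with GC offsets, 0 at a threshold of 0.01 and 0 with gene bodies alone, and 0 to 3 in the leave-one-out fits. With aged samples summed in pairs it was 0 (1 and 2, 1 and 3, 2 and 3, 3 and 4), 3 (1 and 4) and 4 (2 and 4). The count of increased loci, 1, became 2 with DESeq2, 0 with total counts, abundance offsets, a threshold of 0.01 or gene bodies alone, 0 with aged 1 and 3, 2 and 3 or 3 and 4 summed, 2 with 2 and 4 summed, and 0 to 2 in the leave-one-out fits. Decreased loci stayed at 0 throughout.

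Directions that turned were all of uncalled results. With total counts these were the Afm promoter (-0.036), the Ambp promoter (-0.085) and upstream region (-0.029), and the summed loci of Gc (-0.081), Rbp4 (-0.081) and Ambp (-0.078). With abundance offsets they were the longer Alb start region (-0.17), the promoters of Trf (-0.048), Rbp4 (-0.055) and Ambp (-0.16), the 3′ region of Ahsg (-0.14), the intronic region of Rbp4 (-0.095), the upstream region of Ambp (-0.21), and the loci of Gc (-0.050), Ahsg (-0.015), Rbp4 (-0.23) and Ambp (-0.21). Leaving out a sample turned the Alb start region (-0.047, without young 1), the Afm promoter (-0.051, young 1), the Ambp promoter (-0.022, young 2; -0.038, aged 3) and the loci of Alb (0.035, young 2), Gc (-0.026, aged 1), Rbp4 (-0.0073, young 1; -0.035, aged 3) and Ambp (-0.029, young 2). The leave-one-out values of these reached, at the other end, 0.26 (Alb start region), 0.29 (Afm promoter), 0.105 (Ambp promoter), and -0.33 (Alb), 0.11 (Gc), 0.098 (Rbp4) and 0.097 (Ambp) for the loci. Summing aged 1 and 3 or 2 and 3 turned the Ambp promoter (-0.0080, -0.0088) and the Rbp4 locus (-0.00074, -0.0069). The cause was not tested. Of the other tested fold changes under the alternatives, 863 kept direction and side of the threshold, 125 fell short of it and 31 passed it.

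The replicate numbers do not pair the ages: the correlations of same-numbered samples were -0.119, 0.0565 and 0.0298. With a replicate block, 6 member regions were increased and 3 decreased, and 2 loci were increased, and 1 of the 5 stellate promoters was decreased. The block called the Alb 5′ and Ttr 3′ regions increased and the weak regions upstream of Rbp4, between the fetuin genes and past Ambp decreased, and did not call the region past Gc, the inner Ahsg region or the promoters of Fcgrt, Kng2, Foxa2 and Apoa1.

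Counts limit the weak regions most, where a sample held as few as 2 reads. Summing a pair of aged samples treats them as lobules of the same animal, which the labels do not settle.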
